A study of Sus scrofa with 12 samples.

Results

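The CCAAT/enhancer binding proteins (C/EBP) and DDIT3 were followed in the Semimembranosus muscle of 12 Italian Large White pigs, from counts of polyadenylated RNA per gene. The members were listed by gene name: CEBPA, CEBPB, CEBPD, CEBPG, CEBPZ and DDIT3. All 6 had a row with counts among the 25880 genes listed, and all 6 were among the 14262 genes with enough counts to be tested. The pig gene name table gave 5 of the identifiers. The DDIT3 row (ENSSSCG00000040751) carries that symbol in the gene list of the study, while the table gives the symbol to an identifier that is not used here, so its identity rests on the name the authors gave it. CEBPE, the remaining gene of the family, had 11, 6 and 6 counts in pigs 2, 6 and 8 and none in the other pigs, and was not tested. The difference of CEBPB between the groups was known when the family was chosen.

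The high IMF (intramuscular fat) group holds pigs 1 to 6 and the low IMF group pigs 7 to 12. Each group has 3 pigs labelled female and 3 labelled castrated male. The high IMF pigs were 234 to 244 days old and the low IMF pigs 229 to 249 days old, and the labels give 150 to 160 kg of weight, 1 housing environment and 1 diet for all. The animals were picked from the extremes of a larger population and slaughtered on several days, and libraries shared sequencing lanes in pairs; which pigs shared a day or a lane was not analysed here. Libraries held 131048805 to 154840282 counts in the high IMF group and 133915596 to 178013997 in the low IMF group. In 6 of the 12 pigs the counts of the Y-linked genes EIF1AY and KDM5D went against the labelled sex (pigs 3, 5, 7, 8, 9 and 10), so each member is also given for the other 6 pigs, 4 high and 2 low IMF. A match of sex does not show that a library belongs to its labelled pig, so these 6 are not known to be rightly labelled. Whether the group labels are affected was not tested. Bulk muscle RNA mixes fibres with fat, vessel and immune cells, and fewer cells of a type and less RNA per cell cannot be told apart.

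C/EBP proteins are basic leucine zipper transcription factors that bind DNA as dimers, with each other or with related factors such as ATF4. In fat cell formation, CEBPB and CEBPD act early and are followed by CEBPA and PPARG, which switch on and maintain the genes of the mature adipocyte. CEBPG has no strong activation domain and works through its partners. DDIT3, also called CHOP, is induced in the integrated stress response, pairs with other C/EBP proteins and keeps the dimers from classical C/EBP sites. CEBPZ shares the name because it was found through CCAAT boxes, and is a protein of another family that is linked to ribosome formation.

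The windows before the annotated starts of CEBPG and DDIT3 are printed because they lie outside every RefSeq gene and hold motif matches. Each is 250 bases long, on Sscrofa11.1 by RefSeq, written 5′ to 3′ on the strand of the gene, with the CCAAT motif or its reverse complement in capitals. The CEBPG window is chr6:43164652-43164901 on the plus strand and the DDIT3 window chr5:22789868-22790117 on the minus strand.
CEBPG: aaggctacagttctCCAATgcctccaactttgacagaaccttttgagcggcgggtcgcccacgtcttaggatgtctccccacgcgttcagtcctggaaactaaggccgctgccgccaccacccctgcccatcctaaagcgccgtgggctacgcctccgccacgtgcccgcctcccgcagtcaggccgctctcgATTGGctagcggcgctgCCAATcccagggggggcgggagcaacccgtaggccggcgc
DDIT3: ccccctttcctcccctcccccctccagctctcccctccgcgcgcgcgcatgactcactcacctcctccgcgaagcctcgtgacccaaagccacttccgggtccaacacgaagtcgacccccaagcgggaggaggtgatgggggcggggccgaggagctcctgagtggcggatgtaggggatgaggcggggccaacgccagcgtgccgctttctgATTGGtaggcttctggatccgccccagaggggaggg

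The CEBPG window held 3 CCAAT matches, which begin 236, 57 and 40 bases before the start, and the DDIT3 window 1, which begins 36 bases before it. The CEBPB window held 1, which begins 129 bases before its annotated start. The windows of CEBPA, CEBPD and CEBPZ held 0. CCAAT, searched on both strands, was in 31.9% of the 19556 windows of the same length before protein-coding genes. The C/EBP palindrome TTGCGCAA (0.164% of windows), the C/EBP-ATF composite TTGCATCA (0.609%), the cyclic AMP element TGACGTCA (1.7%) and the endoplasmic reticulum stress element, CCAAT and CCACG with any 9 bases between them (0.0716%; its first letters are also a CCAAT match), had 0 matches in the windows of all 6 members. The window of CEBPB is counted here but not shown, because its RefSeq model holds coding sequence only and its true start of transcription is not annotated. It is therefore not known to be the promoter. Other RefSeq genes lie 233 bases from CEBPA and 8 bases from CEBPZ, so the windows of these 2 members may reach into them.

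By the per-length level, which is counts scaled to library size (CPM) per kilobase of RefSeq exon, CEBPB was the highest of the 6 members in these muscles, with 58.3 ± 23.6 (SD, n = 12). DDIT3 followed with 44.1 ± 29.1 (SD, n = 12), and the ranges of both genes overlapped, from 33.7 to 113 for CEBPB and from 16.5 to 116 for DDIT3. CEBPZ had 15.7 ± 1.67, CEBPG 5.59 ± 0.788, CEBPD 3.66 ± 1.52 and CEBPA 0.0963 ± 0.0469 (SD, n = 12 each). CEBPZ and DDIT3 overlapped too, since CEBPZ ran from 13.1 to 19.8. CEBPG, from 4.62 to 7.14, and CEBPD, from 1.89 to 6.54, overlapped as well, while every pig had less CEBPA than any pig had CEBPD. The order depends on the length used. The RefSeq exon of CEBPB, 1041 bases, is coding sequence only, while the exons of the other members also hold bases outside the coding sequence. The first place of CEBPB thus rests on unlike lengths. The joined exons of CEBPG are 7035 bases long with 495 coding bases, and per kilobase of coding sequence the means were 81.3 for DDIT3, 79.4 for CEBPG, 58.3 for CEBPB, 16.9 for CEBPZ, 7.69 for CEBPD and 0.243 for CEBPA. The exon lengths behind the deposited counts are not given in the sources used here.

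Between low and high IMF muscle, CEBPB was the member with higher counts in the low IMF pigs, CEBPA and DDIT3 leaned to the high IMF pigs, and CEBPD, CEBPG and CEBPZ differed by less than their spread. With p-values adjusted by Benjamini-Hochberg over all 14262 genes, edgeR's quasi-likelihood test called 0 of the 6 members at an adjusted p of 0.05 or less, beside 0% of all genes tested. The nominal threshold, an unadjusted p of 0.05 or less, was met by 3 of the 6 members (CEBPA, CEBPB and DDIT3) and by 10.4% of all genes tested, 5.38% being higher in the low and 5.04% in the high IMF group. DESeq2's Wald test called 1 member, CEBPB, at an adjusted p of 0.05 or less, beside 0.723% of the genes that received an adjusted p there. The study lists CEBPB from the same test and pigs, so this call is not separate support. For 1 member, again CEBPB, the groups did not overlap, beside 0.659% of all genes tested in either direction and 0.259% with the low IMF group higher. This separation is in the same pigs and is not separate support either. The log2FC is low over high IMF throughout, and the median log2FC of all genes tested was -0.01.

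**Figure D1:**
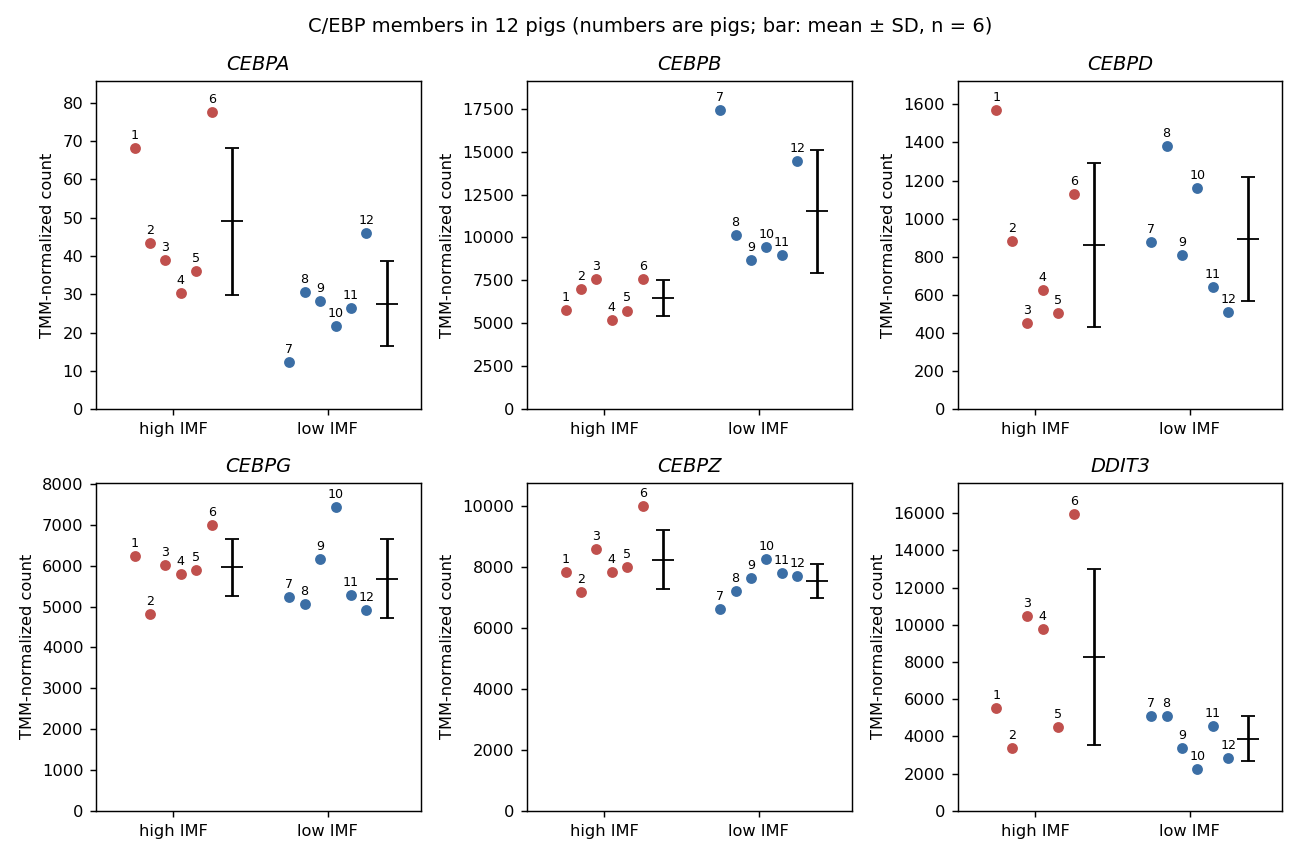
TMM-normalized counts (vertical axes, linear, each with its own scale from 0) of the 6 members in the 6 high IMF pigs (red) and the 6 low IMF pigs (blue), with the mean and SD of each group in black and pig numbers above the points. CEBPB is the member whose groups do not overlap, CEBPA and DDIT3 sit higher in the high IMF group with overlap, and CEBPD, CEBPG and CEBPZ spread over much the same range in both groups.

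CEBPB (CCAAT enhancer binding protein beta, ENSSSCG00000034207) is a single-exon gene on chromosome 17, from 51722633 to 51723673 of Sscrofa11.1, and the nearest other RefSeq gene is 10122 bases away. The high IMF pigs had 5192 TMM-normalized counts at the lowest, 6374 at the median and 7589 at the highest, and the low IMF pigs 8714, 9776 and 17418. The 6 high IMF pigs lay close together, with a coefficient of variation of 16.0%, and the low IMF pigs spread more, with 31.0%, because pigs 7 and 12 stood above the other 4. The log2FC was 0.83 (standard error 0.18), a 1.78-fold higher level in the low IMF group. The unadjusted p was 4.90e-04 and the adjusted p 0.229 in edgeR's quasi-likelihood test, against an adjusted p of 0.00695 in DESeq2's Wald test. An exact two-sided permutation test of log2 CPM gave p = 0.00216 (n = 6 and 6), the smallest that this design allows. It used the pigs in which the difference of CEBPB was already known, so it is not separate support.

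Over the 12 edgeR fits that each dropped 1 pig, the log2FC of CEBPB stayed between 0.68, without pig 7, and 0.90, and its adjusted p between 0.169 and 0.429. DESeq2's Wald test called CEBPB in 12 of 12 such fits, with adjusted p from 0.00335 to 0.0333. These fits reuse the pigs and the test from which the study lists CEBPB. The 6 pigs whose Y-linked counts match their label gave a log2FC of 0.88 (standard error 0.24, adjusted p = 0.998 in edgeR's test), with 5192 to 7589 counts in the 4 high and 8986 and 14440 in the 2 low IMF pigs. Pig 7, the highest, also had the lowest TMM scaling factor, 0.810 against 0.918 to 1.12 in the other pigs, and the highest summed level of the muscle fibre markers, 65803 CPM against 34790 to 49277. The part of these in its CEBPB value was not tested.

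DDIT3 (DNA damage inducible transcript 3, ENSSSCG00000040751) has 4 exons on the minus strand of chromosome 5, from 22785441 to 22789867. The last 69 bases of its 3′ end overlap an exon of MARS on the plus strand by RefSeq, and the strand setting of the counting is not given in the sources used here, so reads there could belong to either gene. The counts were 3364, 7661 and 15950 at the lowest, median and highest high IMF pig and 2276, 3971 and 5099 in the low IMF group. Pigs 6, 3 and 4 stood above all others, pig 1 was just above the highest low IMF pig, and high IMF pigs 2 and 5 lay inside the low IMF range. DDIT3 spanned a 7.01-fold range over the 12 pigs, with a coefficient of variation of 57.1% in the high and 31.2% in the low IMF group; for CEBPD the same values were 3.47-fold, 49.9% and 36.4%.

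The log2FC of DDIT3 was -1.10 (standard error 0.35), a 2.14-fold higher level in the high IMF group. Its unadjusted p was 0.00725 and its adjusted p 0.420 in edgeR's quasi-likelihood test, and 0.0989 in DESeq2's Wald test. The exact two-sided permutation p was 0.0433 (n = 6 and 6). Without pig 6 the log2FC was -0.80, and without pig 2, the high IMF pig with the lowest count, it was -1.26 in edgeR. Leaving out pig 2 was the 1 fit of 12 in which DESeq2's Wald test called DDIT3, with an adjusted p of 0.00932. In the 6 pigs that match their labelled sex, the log2FC of DDIT3 was -1.22 (standard error 0.60).

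**Figure D2:**
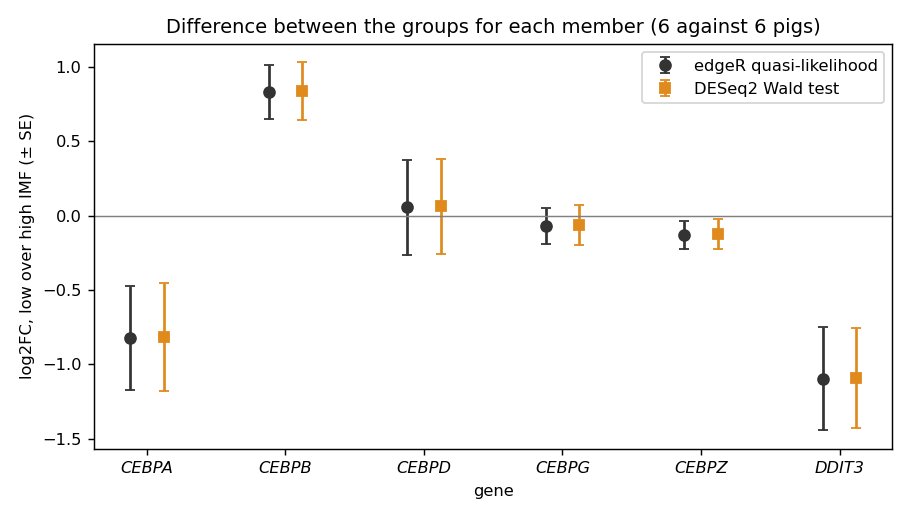
Log2FC of each member, low over high IMF (vertical axis), with its standard error, from edgeR's quasi-likelihood fit (black circles) and DESeq2's Wald test (orange squares) on 6 against 6 pigs. The pairs of points nearly coincide, 0.83 and 0.84 for CEBPB and -1.10 and -1.09 for DDIT3, while the adjusted p of CEBPB was 0.229 in edgeR and 0.00695 in DESeq2.

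CEBPB and DDIT3 were set side by side in each pig. The number of CEBPB counts for each DDIT3 count, on the normalized scale and without correction for length, ran from 0.476 to 2.08 in the high IMF group (median 0.880) and from 1.97 to 5.10 in the low IMF group (median 3.00). Pig 2 was the 1 high IMF pig within the low IMF range. This ratio was chosen after the values of both genes had been seen and has no test. CEBPB falls into separate ranges in the groups, so its relation to DDIT3 is described within them. There r was 0.304 in the high and 0.212 in the low IMF pigs (Pearson, log2 CPM, n = 6 each). On deviations from the group means r was 0.221 (n = 12, permutation p = 0.431, adjusted 0.924), so no relation within the groups was shown.

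**Figure D3:**
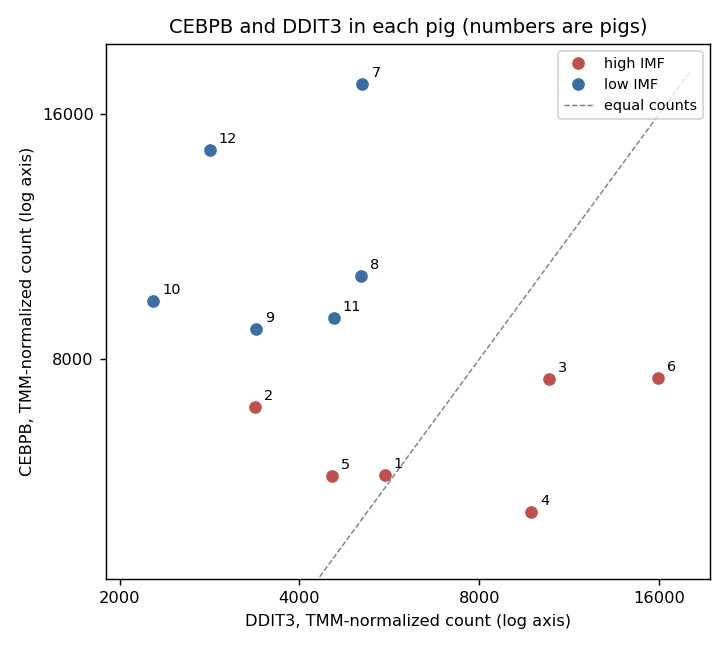
CEBPB (vertical axis) against DDIT3 (horizontal axis), both as TMM-normalized counts on log axes, 1 point per pig with its number, high IMF in red and low IMF in blue; the dashed line marks equal counts. The low IMF pigs lie above and to the left, each with at least 1.97 CEBPB counts for each DDIT3 count, and high IMF pigs 3, 4 and 6 lie below the line.

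CEBPA (CCAAT enhancer binding protein alpha, ENSSSCG00000002866), the member of the mature adipocyte, is a single-exon gene on the minus strand of chromosome 6, from 43083200 to 43085884. It was barely detected: 9 to 72 counts a pig and 460 in all, so counting error is a large part of its spread. Pig 7 had 9 counts (95% exact Poisson interval 4.12 to 17.1, counting error only) and pig 1 had 72 (56.3 to 90.7). These intervals take each count as 1 independent fragment and are too narrow if it is not. On the normalized scale the high IMF pigs had 30.3, 41.1 and 77.5 at the lowest, median and highest, and the low IMF pigs 12.3, 27.3 and 46.0. Pigs 6 and 1 were above every low IMF pig, and 4 low IMF pigs were below every high IMF pig. The log2FC was -0.82 (standard error 0.35; unadjusted p = 0.0351, adjusted p = 0.451 in edgeR's quasi-likelihood test; adjusted p = 0.314 in DESeq2's), and the exact two-sided permutation p was 0.0303 (n = 6 and 6). It stayed negative in all 12 fits that left out 1 pig, from -1.02 without pig 12 to -0.65 without pig 6, and in the 6 pigs that match their labelled sex it was -0.59 (standard error 0.55).

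CEBPD (CCAAT enhancer binding protein delta, ENSSSCG00000032367), the early partner of CEBPB in fat cell formation, is a single-exon gene on chromosome 4, from 79872863 to 79874481. Its counts were 452, 756 and 1568 at the lowest, median and highest high IMF pig and 508, 842 and 1383 in the low IMF group, so the groups covered nearly the same range. Pig 1 was the highest and pig 3, of the same group, the lowest. The log2FC was 0.06 (standard error 0.32, adjusted p = 0.970 in edgeR's quasi-likelihood test; exact two-sided permutation p = 0.729). Its sign was not stable: leaving out pig 3, 4, 5, 8 or 10 turned it negative, within -0.10 to 0.31 over all 12 fits. In the 6 pigs that match their labelled sex it was -0.87 (standard error 0.36, adjusted p = 0.998 in edgeR's test).

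CEBPG (CCAAT enhancer binding protein gamma, ENSSSCG00000002867), the partner-dependent member, lies on the same chromosome as CEBPA, from 43164902 to 43175002 on the plus strand. Its counts were 4815, 5951 and 6993 in the high IMF group and 4912, 5253 and 7441 in the low IMF group, at the lowest, median and highest pig. This was among the steadiest members, with a 1.55-fold range over the 12 pigs. The log2FC was -0.07 (standard error 0.12, adjusted p = 0.878 in edgeR's quasi-likelihood test; exact two-sided permutation p = 0.515), and -0.22 (standard error 0.18) in the 6 pigs that match their labelled sex.

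CEBPZ (CCAAT enhancer binding protein zeta, ENSSSCG00000008493) lies on chromosome 3, from 102964213 to 102988664, with 16 exons on the plus strand. It overlaps CEBPZOS on the other strand by 7026 bases, of which 731 are exonic in both, and NDUFAF7 begins 8 bases away. The high IMF pigs had 7163, 7911 and 9973 counts and the low IMF pigs 6601, 7664 and 8264, at the lowest, median and highest. Pig 6 was the highest and pig 7 the lowest of the 12, and the whole range was 1.51-fold. The log2FC was -0.13 (standard error 0.09, adjusted p = 0.657 in edgeR's quasi-likelihood test; exact two-sided permutation p = 0.171), and that of CEBPZOS, whose reads could in part be those of CEBPZ, was -0.21 (standard error 0.19, adjusted p = 0.739 in edgeR's test). In the 6 pigs that match their labelled sex, the log2FC of CEBPZ was -0.07 (standard error 0.17).

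**Figure D4:**
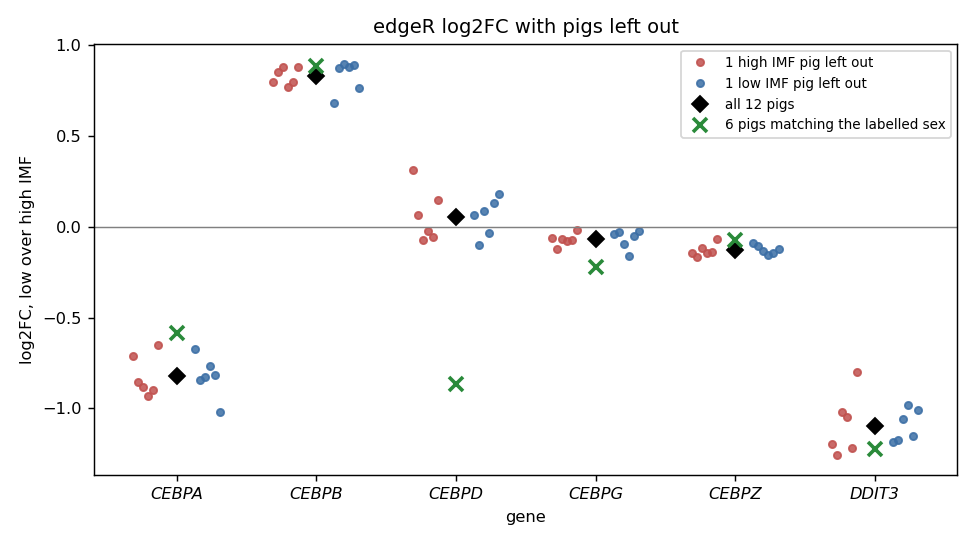
Log2FC of each member in edgeR's fit (vertical axis) with all 12 pigs (black diamonds), with each high IMF pig (red) or each low IMF pig (blue) left out in turn, and in the 6 pigs whose Y-linked counts match their label (green crosses). CEBPB stays above 0 and CEBPA, CEBPG, CEBPZ and DDIT3 below 0 in all of these fits, while CEBPD falls on both sides and drops to -0.87 in the 6 matching pigs.

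Pig 6 had the highest value of the 12 pigs for 3 members, CEBPA, CEBPZ and DDIT3, and the second highest for CEBPG. Pig 7 had the highest CEBPB and the lowest CEBPA and CEBPZ. Of the 15 pairs of members, those with CEBPB entering for the count only, 0 had a correlation of log2 CPM over the 12 pigs whose Benjamini-Hochberg adjusted permutation p was 0.05 or less. The closest pair was CEBPG and CEBPZ, with Pearson's r = 0.707 (n = 12, permutation p = 0.0082, adjusted 0.123) and Spearman's rho = 0.734 (permutation p = 0.00895, adjusted 0.134), from 100000 resamples. Without pigs 2 and 10, the farthest from the median of CEBPG, r was 0.748, and within the groups it was 0.872 in the high and 0.593 in the low IMF pigs (n = 6 each). For CEBPA and CEBPZ r was 0.627 (permutation p = 0.0307, adjusted 0.230) and rho 0.322 (permutation p = 0.309, adjusted 0.695). That relation rested on pigs 6 and 7, without which r was -0.130.

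The 3 genes closest to each member in log2 CPM over the 12 pigs, among 14261 other genes, are given as a description only, since the pigs share group and library depth. For CEBPB these were NCOA5 (r = 0.896), PIGT (0.862) and ZNF200 (0.860). NCOA5 and PIGT lie on the same chromosome as CEBPB, 3.46 and 3.97 Mb away, at 48231490 to 48263956 and 47735339 to 47750052, where 3% of the tested genes with a RefSeq position lie on chromosome 17. For DDIT3 they were SEMA6D (r = 0.908), WDHD1 (0.906) and SUCO (0.901), none of them on its chromosome. CEBPD was closest to LMNA (r = 0.931), which encodes lamin A/C and lies on the same chromosome 14.0 Mb away, then PIM3 (0.892) and ATP2B4 (0.857). CEBPA was closest to CHIC2 (r = 0.935), LRRC1 (0.930) and BIN3 (0.920), and CEBPG to TPST1 (0.904), TMX4 (0.892) and YAF2 (0.892). CEBPZ was closest to MAP4K5 (r = 0.950), UHRF2 (0.944) and SRSF7 (0.938), a splicing factor gene 1.36 Mb from it on chromosome 3. In all, 4 of these 18 genes were on the chromosome of their member. The chromosomes of the members hold from 3% (CEBPB) to 10.3% (CEBPA and CEBPG) of the tested genes with a position, 5.63% for CEBPD and 7.17% for CEBPZ. Whether 4 of 18 differs from these shares was not tested, and the correlations include the difference between the groups. Of the 18, 0 were in a pathway or marker list described here.

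Around DDIT3, the list of the unfolded protein and integrated stress response holds 31 genes, of which 26 were tested. In edgeR's quasi-likelihood test 0 of them passed after adjustment, and the nominal threshold was met by 2 genes higher in low and 1 gene higher in high IMF muscle. Of all genes tested, 5.38% met it higher in low and 5.04% higher in high IMF muscle. The same shares stand beside the lists and markers below. The median log2FC of the list was 0.04, beside -0.01 over all genes tested. DNAJB9, a chaperone of the endoplasmic reticulum, had 7273 to 10773 counts in the high and 10134 to 12228 in the low IMF group (log2FC 0.34, standard error 0.10, unadjusted p = 0.00495 from edgeR). CALR, the calcium-binding chaperone calreticulin, had a log2FC of 0.32 (standard error 0.13) and EDEM1, which passes misfolded glycoproteins on to degradation, one of -0.26 (standard error 0.11). Of the 26 stress genes, 11 had a log2FC on the same side as DDIT3, below 0, and 15 above 0. ATF4, the factor that induces DDIT3, had no row by name and was not analysed here.

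Of the 8 partners and antagonists of C/EBP proteins, 7 were tested, with a median log2FC of 0.00 and 1 that met the nominal threshold. This was CREBBP, the acetyltransferase CBP that C/EBP proteins recruit, with 4110 to 8891 counts in the high and 6088 to 11773 in the low IMF group (log2FC 0.63, standard error 0.20, adjusted p = 0.420 in edgeR's test). Among the 13 genes upstream of CEBPB and CEBPD transcription, all tested, the nominal threshold was met by 3 that were higher in high IMF muscle and by 0 in the other direction, and the median log2FC was -0.02. These were the cytokine genes IL6 and LIF and the factor gene EGR2. Pig 6 stood apart for both cytokines. LIF had 337 counts there and 32.4 to 43.5 in the other high IMF pigs, against 8.88 to 45.3 in the low IMF pigs, and its log2FC of -1.59 became -0.36 without pig 6 (unadjusted p = 0.344 in edgeR's test). IL6 had 5097 counts in pig 6 and 855 in pig 1, while the other 4 high IMF pigs, from 35.7 to 113, lay inside the low IMF range of 10.9 to 169. Its log2FC went from -4.03 to -1.85 without pig 6 and to -4.61 without pig 10. EGR2 had 1313 counts in pig 6, 284 to 607 in the other high IMF pigs and 172 to 422 in the low IMF pigs (log2FC -1.02, standard error 0.33). Without pig 6 the log2FC of EGR2 was -0.64 (unadjusted p = 0.0181 in edgeR's test). DESeq2's Wald test called 1 of the 13, IL6 (adjusted p = 0.0447), which the study lists from the same test and pigs. It called IL6 in 5 of the 12 fits that each dropped 1 pig. Without pig 1 and without pig 6 it gave IL6 no adjusted p.

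The adipogenic cascade that follows the C/EBP proteins holds 18 genes, of which 15 were tested, with a median log2FC of 0.12. PPARG, the nuclear receptor that works beside CEBPA, had 328, 420 and 768 counts at the lowest, median and highest high IMF pig and 194, 358 and 592 in the low IMF group (log2FC -0.31, standard error 0.30, adjusted p = 0.746 in edgeR's quasi-likelihood test). Pig 6 was the highest and pig 7 the lowest for PPARG as for CEBPA. The nominal threshold was met by 2 genes, both higher in low IMF muscle. RXRA, the partner of PPARG in DNA binding, had 2550 to 9641 counts in the high and 5955 to 16361 in the low IMF group (log2FC 0.92, standard error 0.35). KLF15, a factor of fat and muscle metabolism, had a log2FC of 0.66 (standard error 0.28). The 5 markers of mature adipocytes with a row overlapped between the groups, with sums of 41.9 to 118 CPM in the high and 19.7 to 127 in low IMF muscle, and 0 of the 5 met the nominal threshold. CIDEA, of the same list, had no row by name.

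Of 11 immediate early genes tested, whose transcripts appear within minutes of a stimulus, 5 met the nominal threshold with higher counts in high IMF muscle and 1 with lower, and the median log2FC was -0.61. The shares of all genes tested were 5.04% and 5.38%. The 4 with the smallest p were IER2 (log2FC -0.92, standard error 0.30), EGR3 (-1.44, standard error 0.50) and EGR1 (-1.57, standard error 0.62), and in the other direction NR4A3 (1.12, standard error 0.37). NR4A3 had 75264 counts in pig 7 and 11877 to 41884 in the other low IMF pigs. Without pig 7 its log2FC was 0.71 (unadjusted p = 0.0319 in edgeR's test). EGR3 had low counts, 17.4 to 123 in the high and 10.2 to 52.3 in the low IMF group. EGR1 had 34697 counts in pig 6, 1661 to 9749 in the other high IMF pigs and 1380 to 7773 in the low IMF pigs, and without pig 6 its log2FC was -0.69 (unadjusted p = 0.157 in edgeR's test). Of 9 heat shock genes tested, 2 met it: DNAJB1, a co-chaperone, was higher in high IMF muscle and HSF1, the heat shock regulator, lower (log2FC -1.60 and 0.40, standard errors 0.34 and 0.14), with a median of -0.16. The adjusted p of DNAJB1 was 0.205 in edgeR's test. DESeq2's Wald test called it (adjusted p = 0.00119), and the study lists it from the same test and pigs, so this call is not separate support. Pig 6, the highest for DDIT3, also had the highest summed level of the immediate early list, 1272 CPM, of the heat shock list, 4236 CPM, and of the unfolded protein and integrated stress list, 2069 CPM against 1327 to 1933 in the other pigs; the part of these in its DDIT3 value was not tested.

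**Figure D5:**
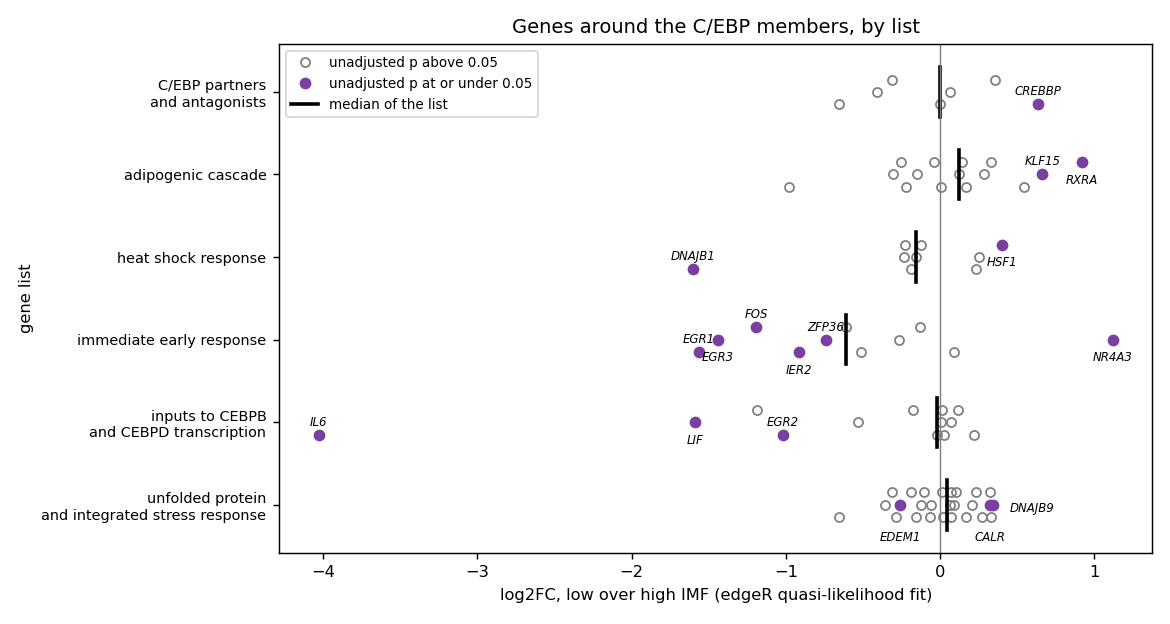
Log2FC, low over high IMF (horizontal axis), of the tested genes of 6 lists around the C/EBP members; filled purple points met the nominal threshold in edgeR's quasi-likelihood test and are named, and black bars are list medians. The stress list around DDIT3 is centred on 0.04, while the immediate early list has its median at -0.61.

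Markers of other cell types were set beside the members. The 6 macrophage markers summed to 55.3 to 123 CPM in the high and 64.7 to 113 in the low IMF group, with pig 6 highest and pig 7 second, and 1 of them, AIF1, met the nominal threshold with higher counts in high IMF muscle. Without pig 6 the log2FC of AIF1 went from -0.46 to -0.30 (unadjusted p = 0.119 in edgeR's test). The 5 neutrophil markers with a row, CEBPE among them, summed to 0.172 to 6.13 CPM in the high and 0.327 to 1.02 in the low IMF group, and MPO had 0 counts in every pig. The 6.13 CPM were those of pig 6, and the other 5 high IMF pigs had 0.172 to 0.633. Of 7 fibro-adipogenic markers, PDGFRA and DPP4 met the nominal threshold with higher counts in high IMF muscle. In this list 4 genes had a log2FC below 0 and 3 above it, among them COL1A1 (0.46) and COL3A1 (0.30). Without pig 6 the log2FC went from -0.42 to -0.22 for PDGFRA and from -0.45 to -0.34 for DPP4. The list summed to 1082 to 2200 CPM in the high and 1663 to 2644 in the low IMF group, and COL3A1 had the highest counts in it. Of 4 endothelial markers tested, CDH5 met the nominal threshold with higher counts in low IMF muscle, with sums of 92.0 to 123 and 95.3 to 159 CPM in the high and low IMF groups. The 7 muscle fibre markers with a row, abundant in every pig, and the 4 satellite cell markers had 0 genes that met it, and satellite cell sums ran from 12.3 to 29.4 and from 14.7 to 24.7 CPM. The part of these cells in the values of the members was not tested.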

How the data were processed

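Total RNA of the Semimembranosus muscle of 12 pigs was made into stranded libraries of polyadenylated RNA and sequenced as read pairs. The authors trimmed the reads with Trimmomatic, aligned them with HISAT2 to Sscrofa11.1, ran StringTie and obtained gene counts from HTSeq. They deposited raw counts per Ensembl gene and pig. The annotation release and the strand setting are not given in the sources used here. Groups came from the sample labels.

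After edgeR's filterByExpr and TMM scaling, the quasi-likelihood test of edgeR 4.0.16 (R 4.3.3) had group as its single term, with Benjamini-Hochberg adjustment over 14262 genes. Standard errors are the log2FC divided by the root of the F statistic. DESeq2 1.42.0 (the test of the study), limma-voom (limma 3.58.1), other normalizations, filters and covariates, and each pig left out were alternatives. Exact permutation tests, two-sided, and correlations used log2 CPM with a prior count of 2 (scipy 1.17.1). Tests were tried on simulated counts. Totals ran from 131048805 to 178013997 counts a pig, so within the family counting error is large only for CEBPA and CEBPE. Some listed genes, such as EGR3, LIF and the neutrophil markers, had counts as low in some pigs. The common biological coefficient of variation was 0.332. Nothing in the labels pairs pigs across groups, and each pig is 1 sample.

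The named genes are the members in every pig, CEBPE, ATF4, PPARG, up to 4 genes of each pathway list with the smallest quasi-likelihood p among those at or under 0.05, the 3 genes most correlated with each member, and overlapping or neighbouring genes; marker genes at that threshold are named beside them. Members and lists were chosen with earlier results of these data known. Positions are those of RefSeq genes, matched by symbol.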

Additional observations from a re-analysis of the deposited data

How the results depend on the processing

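The number of all genes called (adjusted p of 0.05 or less) was 0 in edgeR's quasi-likelihood test under each normalization, filter and covariate tried, in limma-voom and in the 6 pigs that match their labelled sex (1486 genes met the nominal threshold with all 12 pigs), and 0 to 1 when single pigs were dropped. DESeq2's Wald test gave 95 over the genes edgeR tested and 101 over every gene with a count, and 58 (without pig 6) to 353 (without pig 2) when single pigs were dropped. It called 1 member on either set of genes, CEBPB (log2FC 0.84 in both, adjusted p = 0.00569 and 0.00695), and 1 to 2 members when single pigs were dropped, DDIT3 being the second without pig 2 (log2FC -1.25, within -1.25 to -0.80 over the 12 fits). The study lists CEBPB from this test on the same pigs. CEBPD reversed in 5 of 12 fits of either tool, within -0.10 to 0.31 in edgeR and -0.10 to 0.32 in DESeq2, and to -0.87 in the 6 matching pigs. The correlation of CEBPB and DDIT3 was 0.22 on deviations from the group means, opposite in sign to that on the values, which holds the separation of the groups in CEBPB, and the correlation of CEBPD and DDIT3 changed from -0.05 to 0.0217. The cause of these changes was not tested. Of 313 recomputed values, 286 stayed the same. For a number of genes or members called this means a similar number, and for a log2FC, a permutation test or a correlation the same direction and side of the threshold. Most of the latter did not pass the threshold to begin with, so this total does not measure how firm a difference is. The highest and lowest pig of each group did not stand apart by Dixon's test for any of the 6 members (0 of 12 groups). No paired analysis was possible because the labels give no numbers shared by pigs of both groups.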
